A study of Mus musculus with 18 samples.

Results

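The 10 genes described here are glutathione transferases and glutathione peroxidases of the mouse kidney cortex. They are the alpha class transferases Gsta2, Gsta3 and Gsta4, the mu class transferases Gstm1, Gstm2 and Gstm7, the pi class transferase Gstp1, and the peroxidases Gpx1, Gpx3 and Gpx4. They were taken by gene name from the 24062 rows of the deposited table of RPKM (reads per kilobase of transcript, scaled to library size). All 10 were found, and all 10 were among the 13624 genes that reached 1 RPKM in 3 or more of the 18 libraries and were tested. The study asked what the transcription factor Klf15 does in the proximal tubule when the kidney is poisoned. C57Bl/6 mice labelled Klf15PTKO (PTKO), with loss of Klf15 in the proximal tubule, were set beside Klf15fl/fl mice (fl/fl), which carry floxed Klf15 alleles. Each genotype was sampled after the vehicle DMSO, after 2 weeks of aristolochic acid I (AA 2wk), and after 2 weeks of the toxin followed by 2 weeks of remodeling (AA 4wk), with 3 libraries in each of the 6 groups. Age, dose and Cre driver were not stated, and no group has Cre with intact Klf15, so effects of Cre and of Klf15 loss cannot be told apart. Whether each library came from its own mouse is not stated, so a p-value reflects only the spread among these libraries, which may be technical.

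Glutathione transferases join the tripeptide glutathione to reactive electrophiles, which marks them for export or for further breakdown to mercapturates in the proximal tubule. Glutathione peroxidases spend glutathione to reduce hydrogen peroxide and lipid hydroperoxides, and Gpx1, Gpx3 and Gpx4 are selenoproteins. Many transferases are known targets of NRF2, a transcription factor that binds antioxidant response elements under oxidative stress. In the kidney, the proximal tubule is the known main source of Gpx3, which is secreted into plasma. The genes lie on 6 chromosomes of the mm10 build. Gstm7 (chr3:107926334-107931817), Gstm2 (chr3:107981702-107986453) and Gstm1 (chr3:108012255-108017973) stand on the minus strand of the mu cluster. Gsta4 (chr9:78182774-78209349, plus strand) and Gsta2 (chr9:78331018-78355788, minus strand) lie on one chromosome, while Gsta3 is on another chromosome (chr1:21240589-21265661, plus strand). Gpx1 (chr9:108338903-108340343), Gpx3 (chr11:54902453-54910377) and Gpx4 (chr10:80047166-80056439) are on plus strands, and Gstp1 (chr19:4035407-4037985) is on the minus strand.

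The promoters of Gsta3 and of the 3 mu genes are shown because these genes responded differently to the toxin although the mu genes lie in one cluster. They are RefSeq sequences of build GRCm38.p6, up to 250 bases before the start site, and stop before the outermost annotated start. Each is written in the direction of its own gene, and capitals mark the antioxidant response element core (TGACNNNGC) or the CACCC box, a binding motif of the Krüppel-like family to which Klf15 belongs, searched on both strands.
Gsta3, chr1:21240335-21240564, plus strand: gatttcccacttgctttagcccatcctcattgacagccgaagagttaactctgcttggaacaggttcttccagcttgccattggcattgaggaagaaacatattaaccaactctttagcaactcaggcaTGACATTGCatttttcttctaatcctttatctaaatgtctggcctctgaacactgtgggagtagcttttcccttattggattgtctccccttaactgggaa
Gstm1, chr3:108017974-108018223, minus strand: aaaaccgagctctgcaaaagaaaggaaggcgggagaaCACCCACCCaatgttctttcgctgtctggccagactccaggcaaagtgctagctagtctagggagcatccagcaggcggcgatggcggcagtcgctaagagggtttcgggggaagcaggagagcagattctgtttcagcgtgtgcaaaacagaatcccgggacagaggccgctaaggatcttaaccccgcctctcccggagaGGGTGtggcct
Gstm2, chr3:107986454-107986670, minus strand: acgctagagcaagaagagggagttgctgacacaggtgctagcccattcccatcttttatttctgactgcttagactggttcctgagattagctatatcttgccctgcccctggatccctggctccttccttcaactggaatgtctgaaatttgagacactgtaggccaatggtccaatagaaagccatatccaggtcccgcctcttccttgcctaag
Gstm7, chr3:107931878-107932067, minus strand: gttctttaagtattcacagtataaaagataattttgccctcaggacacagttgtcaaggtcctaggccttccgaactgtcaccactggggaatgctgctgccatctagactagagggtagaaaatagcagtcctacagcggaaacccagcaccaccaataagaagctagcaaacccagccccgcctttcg
The Gsta3 window held an antioxidant response element core that began 121 bases before the start site, and no CACCC box. The Gstm1 window held 3 CACCC boxes, of which 2 share a base, and the Gstm2 and first Gstm7 windows held neither motif. Of the 10 genes, 9 had an entry among the RefSeq promoters, all except Gsta4. The response element core was found for 2 of these 9, Gsta3 and a second start site of Gstm7. By window this was 2 of their 14, beside 10.2% of 32851 mouse promoter windows of 250 bases. The CACCC box was found for 6 of the 9, or in 7 of their 14 windows, beside 52.0% of all windows. These are matches of letters and not measured binding sites.

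Recovered depth ran from 10980643 to 21922497 reads per library. Klf15 itself had 28.5, 31.9 and 32.6 RPKM in PTKO DMSO libraries, against 53.0, 61.3 and 65.5 RPKM in fl/fl DMSO libraries without overlap (log2 difference -0.93 ± 0.26, SE, limma adjusted p 0.595). At AA 2wk it had 12.5, 17.5 and 25.6 RPKM in PTKO and 22.9, 18.6 and 41.3 RPKM in fl/fl, and at AA 4wk 9.11, 8.81 and 9.53 RPKM in PTKO and 11.6, 14.6 and 18.8 RPKM in fl/fl. The tissue was kidney by its markers, with all 16 listed proximal tubule markers in the table. Their summed level was 57985 to 62808 RPKM in PTKO and 51516 to 64195 RPKM in fl/fl under DMSO. It was 3022 to 6508 RPKM in PTKO and 3989 to 8575 RPKM in fl/fl at AA 2wk, and 2052 to 4086 RPKM in PTKO and 3506 to 5424 RPKM in fl/fl at AA 4wk. These sums include Kap, which took at least 2.385% of reads in DMSO libraries and at most 0.31% in toxin libraries. Averaged over the markers, the log2 difference from the fl/fl DMSO mean was smaller. At AA 2wk it was -2.81 to -1.75 in PTKO and -2.59 to -1.43 in fl/fl. At AA 4wk it was -3.56 to -2.52 in PTKO and -2.57 to -2.17 in fl/fl. In both genotypes the AA 2wk library numbered 3 stood apart from the other AA 2wk libraries, and results that rest on it are given with and without it. The PTKO DMSO library numbered 3 had 24.9 RPKM of the injury marker Havcr1, against at most 0.98 RPKM in the other DMSO libraries.

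After remodeling, most of the changes called among these genes were decreases, 5 of 6 in PTKO and 6 of 8 in fl/fl. At that time, PTKO cortex had lower Gsta3, Gstm1, Gstp1, Gpx1 and Gpx4 and higher Gstm2 than PTKO cortex under DMSO, and fl/fl cortex had lower Gsta3, Gstm1, Gstm7, Gstp1, Gpx1 and Gpx4 and higher Gsta4 and Gstm2. In a limma fit of log2(RPKM + 1) with Benjamini-Hochberg adjustment over all tested genes, a gene was called at an adjusted p under 0.05. At AA 2wk, 4 of the 10 genes were called in PTKO (2 higher, 2 lower), beside 60.2% of all tested genes (45.9% higher and 14.3% lower). In fl/fl, 3 of the 10 were called at AA 2wk (2 higher, 1 lower), beside 62.6% of all genes (50.4% higher and 12.2% lower). At AA 4wk, 6 of the 10 were called in PTKO (1 higher, 5 lower), beside 72.2% of all genes (55.0% higher and 17.3% lower). In fl/fl, 8 of the 10 were called at AA 4wk (2 higher, 6 lower), beside 66.3% of all genes (51.9% higher and 14.3% lower). All libraries lay above DMSO without overlap for 2 genes in PTKO and 2 in fl/fl at AA 2wk, beside 46.9% and 51.0% of all genes, and for 1 in PTKO and 3 in fl/fl at AA 4wk, beside 60.5% and 55.6%. All lay below for 2 genes in PTKO and 1 in fl/fl at AA 2wk, beside 16.0% and 12.3%, and for 6 in PTKO and 6 in fl/fl at AA 4wk, beside 19.9% and 16.6%. As deposited, the share of the 10 genes called lower at AA 4wk was therefore above the share of all genes called lower, and the share called higher was below it. Quantile normalization called 5 of the 10 lower and 2 higher in PTKO at that time, beside 36.5% and 29.2% of all genes. In fl/fl it called 4 lower and 3 higher, beside 33.8% and 26.3%, near the shares of all genes. Gpx3 was among the higher calls in both genotypes, which follows from its rank.

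The whole table shifted upward with the toxin. The median log2 fold change of all tested genes was 0.29 in PTKO and 0.33 in fl/fl at AA 2wk, and 0.40 in PTKO and 0.35 in fl/fl at AA 4wk. The 10 genes had medians of 0.08 in PTKO and -0.14 in fl/fl at AA 2wk, and -0.55 in PTKO and -0.37 in fl/fl at AA 4wk. Median-of-ratios scaling, which takes the all-gene median to between 0.00 and 0.03, gave 0 higher and 5 lower members in PTKO and 0 higher and 4 lower in fl/fl at AA 2wk, and 0 higher and 7 lower in PTKO and 1 higher and 6 lower in fl/fl at AA 4wk. Of all tested genes, this scaling called 27.0% higher and 27.1% lower in PTKO and 28.4% higher and 27.5% lower in fl/fl at AA 2wk, and 33.9% higher and 33.0% lower in PTKO and 30.7% higher and 29.9% lower in fl/fl at AA 4wk. Under it, 49.9% of all calls in PTKO and 50.8% in fl/fl were higher at AA 2wk, against 76.3% in PTKO and 80.5% in fl/fl as deposited. At AA 4wk, 50.7% of all calls were higher in both genotypes, against 76.1% in PTKO and 78.4% in fl/fl as deposited. Each gene's changes are therefore given after this scaling as well. In bulk cortex, fewer tubule cells and less RNA per tubule cell cannot be told apart.

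**Figure D1:**
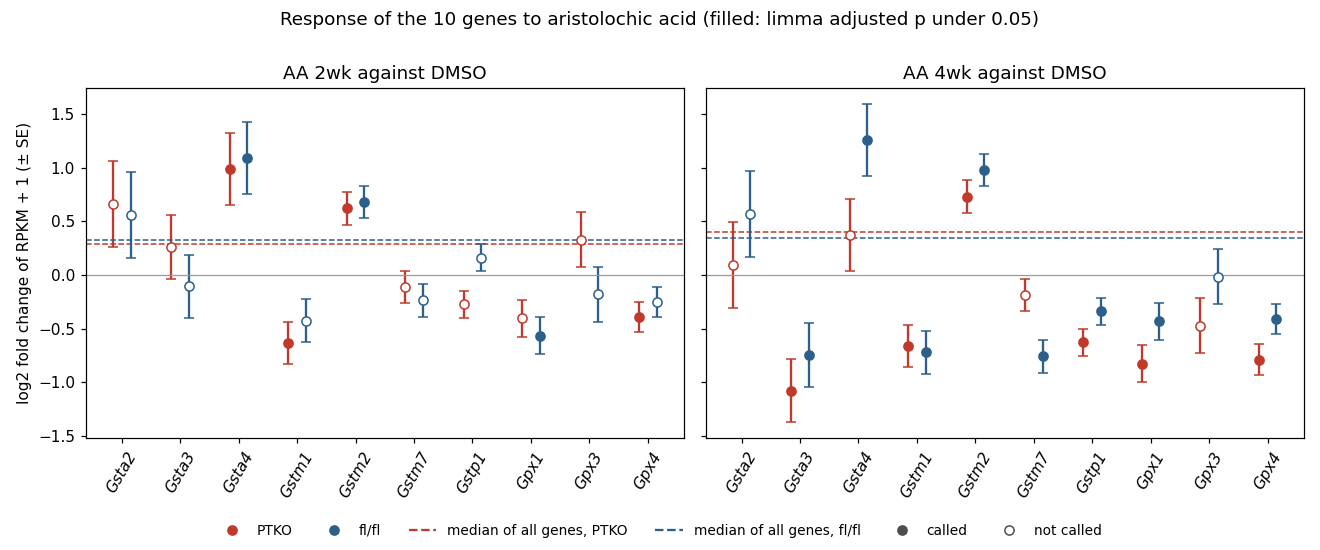
Log2 fold change of RPKM + 1 (vertical axis, with SE) for AA 2wk against DMSO (left) and AA 4wk against DMSO (right), for each gene on the horizontal axis in PTKO and fl/fl. Filled points passed the limma threshold and dashed lines are the medians of all tested genes, from 0.29 to 0.40. Gsta4 and Gstm2 lie above these lines at AA 2wk (their calls at AA 2wk are lost under median-of-ratios scaling). Gsta2 (0.66 in PTKO, 0.56 in fl/fl) and Gpx3 in PTKO (0.33) also lie above them at AA 2wk without being called, and most others lie below 0.

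Gsta4, an alpha class transferase known for conjugating 4-hydroxynonenal, a product of lipid peroxidation, showed the largest rise among the 10 genes in fl/fl. It had 21.2, 29.2 and 22.7 RPKM in PTKO DMSO libraries, and 27.9, 27.2 and 20.7 RPKM in fl/fl DMSO libraries. After 2 weeks of toxin it had 32.3, 52.0 and 69.3 RPKM in PTKO libraries, and 41.7, 36.6 and 106 RPKM in fl/fl libraries. At AA 4wk it had 25.0, 34.9 and 36.1 RPKM in PTKO libraries, and 51.8, 74.9 and 59.3 RPKM in fl/fl libraries. All toxin libraries except PTKO AA 4wk number 1 stood above every DMSO library of their genotype. The log2 fold change against DMSO at AA 2wk was 0.99 ± 0.34 in PTKO (SE, limma adjusted p 0.0198) and 1.09 ± 0.34 in fl/fl (0.0111). At AA 4wk it was 0.38 ± 0.34 in PTKO (0.324) and 1.26 ± 0.34 in fl/fl (0.00429), but the difference between these changes did not pass the threshold (-0.88 ± 0.47, limma adjusted p 0.934). After median-of-ratios scaling the changes were 0.66 in PTKO and 0.71 in fl/fl at AA 2wk and -0.06 in PTKO and 0.85 in fl/fl at AA 4wk, and none was called. The AA 2wk call was lost in PTKO without AA 2wk number 2 or 3 or DMSO number 1 or 3 (0.74 to 0.95), and in fl/fl without AA 2wk number 3 (0.62). Without both AA 2wk libraries numbered 3 the AA 2wk changes were 0.74 in PTKO (0.00963) and 0.62 in fl/fl (0.0249), both called by limma.

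Gsta3, an alpha class transferase known in mice for detoxifying the aflatoxin epoxide, was steady between libraries under DMSO and was lowest after remodeling in PTKO. It had 69.7, 64.8 and 68.1 RPKM in PTKO DMSO libraries, against 88.9, 92.5 and 88.3 RPKM in fl/fl DMSO libraries. In AA 2wk cortex it had 58.8, 69.9 and 130 RPKM in PTKO libraries, and 68.8, 58.2 and 144 RPKM in fl/fl libraries. After remodeling it had 37.0, 24.6 and 34.1 RPKM in PTKO libraries, against 46.0, 55.9 and 58.5 RPKM in fl/fl libraries. The genotypes did not overlap under DMSO or at AA 4wk, and at AA 2wk both libraries numbered 3 lay above all others. Against DMSO, Gsta3 at AA 4wk fell by 1.08 ± 0.30 on the log2 scale in PTKO (SE, limma adjusted p 0.00456) and by 0.75 ± 0.30 in fl/fl (0.0381). Median-of-ratios scaling gave -1.52 in PTKO and -1.15 in fl/fl at AA 4wk, both called, and -0.07 in PTKO and -0.50 in fl/fl at AA 2wk, neither called. The fl/fl call was lost without any single fl/fl library of AA 4wk or DMSO (-0.81 to -0.64). At AA 2wk the change was 0.27 ± 0.30 in PTKO (limma adjusted p 0.452) and -0.11 ± 0.30 in fl/fl (0.77), and without both libraries numbered 3 it was -0.07 in PTKO and -0.50 in fl/fl, where it was then called (limma adjusted p 0.00789).

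Gsta2, the third alpha class transferase, conjugates a range of electrophiles and has known peroxidase activity toward lipid hydroperoxides. It had 68.2, 90.6 and 54.9 RPKM in PTKO DMSO libraries, and 107, 128 and 66.0 RPKM in fl/fl DMSO libraries. At the end of toxin exposure it had 80.0, 86.5 and 197 RPKM in PTKO libraries, and 98.2, 103 and 291 RPKM in fl/fl libraries. In AA 4wk cortex it had 66.1, 65.4 and 94.8 RPKM in PTKO libraries, against 143, 133 and 157 RPKM in fl/fl libraries. The number 3 libraries of AA 2wk were again the highest, and at AA 4wk the genotypes did not overlap. No toxin effect was called for Gsta2, with 0.66 ± 0.40 in PTKO and 0.56 ± 0.40 in fl/fl at AA 2wk and 0.09 ± 0.40 in PTKO and 0.57 ± 0.40 in fl/fl at AA 4wk (log2, SE, limma adjusted p from 0.165 to 0.849). After median-of-ratios scaling they were 0.33 in PTKO and 0.17 in fl/fl at AA 2wk and -0.35 in PTKO and 0.15 in fl/fl at AA 4wk, none called (limma adjusted p from 0.475 to 0.771). Without both number 3 libraries of AA 2wk, the AA 2wk changes were 0.25 in PTKO (0.389) and 0.05 in fl/fl (0.864), and the fl/fl change at AA 4wk kept its size and was called (limma adjusted p 0.0379). Of the stretches of 31 bases in its annotated transcripts, 58.8% occur in other genes, most in Gm10639, so reads may have been split between copies and its level is uncertain.

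**Figure D2:**
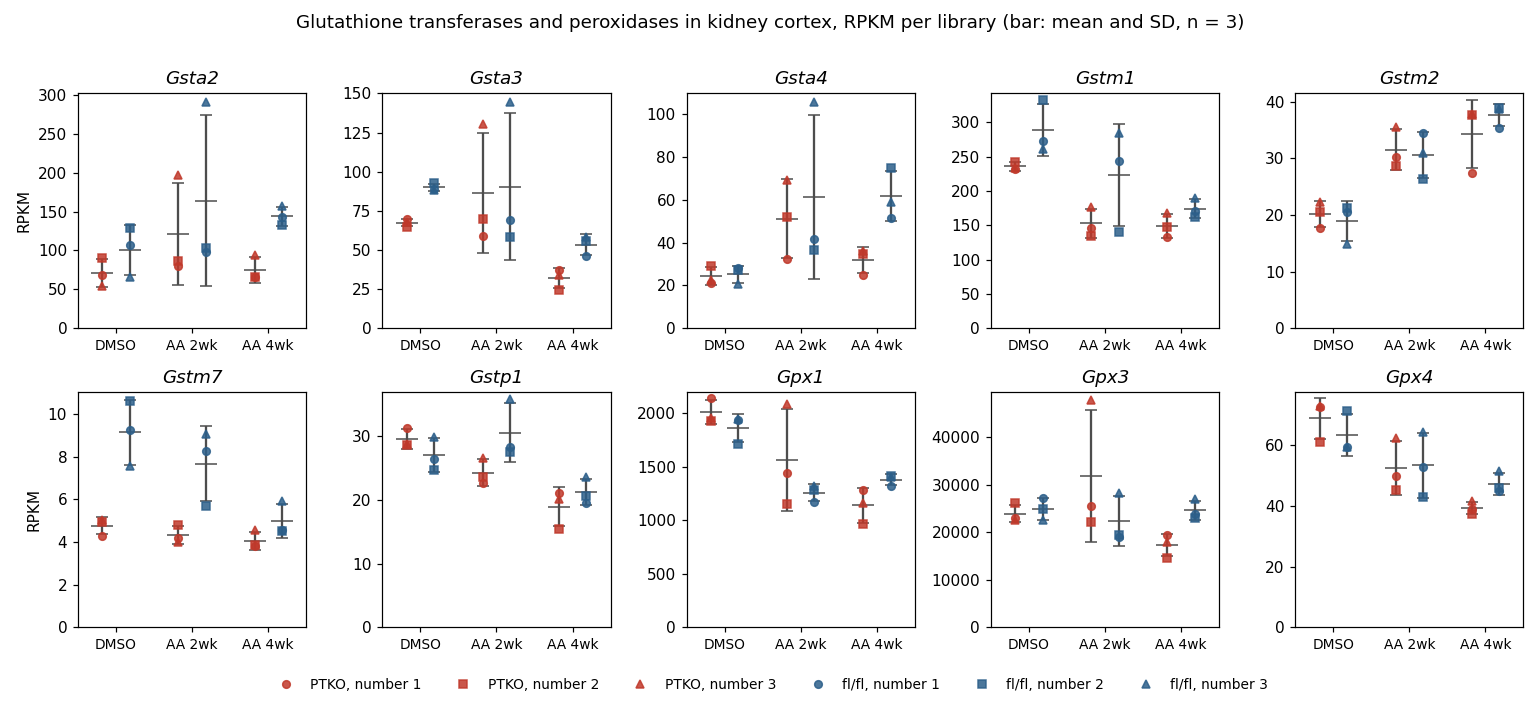
RPKM of each gene (vertical axes, from 0) in DMSO, AA 2wk and AA 4wk cortex, with PTKO in red left of fl/fl in blue. Points are libraries, with their number as symbol, and bars are mean and SD over 3 libraries. The triangles of AA 2wk are the highest points for Gsta2 (197 in PTKO, 291 in fl/fl) and Gpx3 (47764 in PTKO, 28314 in fl/fl), and the Gstm7 points of PTKO DMSO lie below those of fl/fl DMSO.

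Gstm2, a mu class transferase, rose in both genotypes at both times. It had 17.7, 20.5 and 22.3 RPKM in PTKO DMSO libraries, and 20.6, 21.2 and 14.8 RPKM in fl/fl DMSO libraries. At AA 2wk it had 30.3, 28.7 and 35.6 RPKM in PTKO libraries, and 34.6, 26.4 and 30.98 RPKM in fl/fl libraries. By AA 4wk it had 27.5, 37.7 and 37.8 RPKM in PTKO libraries, and 35.5, 38.9 and 38.8 RPKM in fl/fl libraries. No toxin library overlapped the DMSO libraries of its genotype, and the genotypes overlapped in each treatment. The log2 fold change at AA 2wk was 0.62 ± 0.15 in PTKO (SE, limma adjusted p 0.00277) and 0.68 ± 0.15 in fl/fl (0.00137). At AA 4wk it was 0.73 ± 0.15 in PTKO (0.000529) and 0.98 ± 0.15 in fl/fl (6.1e-05). After median-of-ratios scaling the change was 0.30 in PTKO and 0.30 in fl/fl at AA 2wk and 0.30 in PTKO at AA 4wk, none called, and 0.58 in fl/fl at AA 4wk, called as in all 30 settings tried.

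Gstm1, the most abundant of the 10 genes' transferases by RPKM, moved the other way from its neighbour Gstm2. It had 232, 243 and 233 RPKM in PTKO DMSO libraries, against 273, 333 and 261 RPKM in fl/fl DMSO libraries. After 2 weeks of toxin it had 146, 135 and 177 RPKM in PTKO libraries, and 244, 140.5 and 285 RPKM in fl/fl libraries. At AA 4wk it had 133, 147 and 168 RPKM in PTKO libraries, and 171, 162 and 189.6 RPKM in fl/fl libraries. Every PTKO toxin library was below every PTKO DMSO library, whereas fl/fl overlapped at AA 2wk. Against DMSO, Gstm1 at AA 2wk fell by 0.63 ± 0.20 on the log2 scale in PTKO (SE, limma adjusted p 0.0126), and in fl/fl its change was -0.43 ± 0.20 (0.0724). At AA 4wk it fell by 0.66 ± 0.20 in PTKO (0.00749) and by 0.72 ± 0.20 in fl/fl (0.00489). The AA 2wk call in PTKO was lost without PTKO AA 2wk number 2 (-0.55), and fl/fl was called at AA 2wk without fl/fl AA 2wk number 3 (-0.63). Both AA 4wk calls were lost under quantile normalization (-0.31 in PTKO, -0.39 in fl/fl), and median-of-ratios scaling gave -1.11 in PTKO and -1.13 in fl/fl, both called. That scaling gave -0.97 in PTKO and -0.82 in fl/fl at AA 2wk, also both called (limma adjusted p 0.00182 and 0.00547). Of its 31-base stretches, 30.4% are shared with other genes, mostly the pseudogene Gstm2-ps1, so its counts may include or lack shared reads.

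Gstm7, a mu class transferase, was the least abundant of the 10 genes and the only one with an unadjusted p under 0.05 between genotypes under DMSO, where none was called. It had 4.30, 4.92 and 5.03 RPKM in PTKO DMSO libraries, against 9.26, 10.6 and 7.55 RPKM in fl/fl DMSO libraries. In AA 2wk cortex it had 4.17, 4.80 and 4.01 RPKM in PTKO libraries, against 8.26, 5.70 and 9.04 RPKM in fl/fl libraries. After remodeling it had 3.80, 3.84 and 4.54 RPKM in PTKO libraries, and 4.54, 4.51 and 5.90 RPKM in fl/fl libraries. The PTKO values stayed in a narrow band in all treatments, while the fl/fl values came down toward that band at AA 4wk. Against DMSO, Gstm7 at AA 4wk fell by 0.76 ± 0.15 on the log2 scale in fl/fl (SE, limma adjusted p 0.000535), and its change in PTKO was -0.19 ± 0.15 (0.282). The difference between these changes was 0.57 ± 0.22, which failed the correction (unadjusted p 0.0183, limma adjusted p 0.934). At AA 2wk the change was -0.11 ± 0.15 in PTKO and -0.24 ± 0.15 in fl/fl, neither called. After median-of-ratios scaling it was -0.39 in PTKO and -0.59 in fl/fl at AA 2wk and -0.56 in PTKO and -1.12 in fl/fl at AA 4wk, and all 4 were called. These levels rest on 65 to 241 reads per library.

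Gstp1, the pi class transferase, had 31.3, 28.6 and 28.7 RPKM in PTKO DMSO libraries, and 26.5, 24.8 and 29.97 RPKM in fl/fl DMSO libraries. At the end of toxin exposure it had 22.6, 23.7 and 26.6 RPKM in PTKO libraries, against 28.3, 27.5 and 35.9 RPKM in fl/fl libraries. In AA 4wk cortex it had 21.1, 15.4 and 20.2 RPKM in PTKO libraries, and 19.5, 20.7 and 23.6 RPKM in fl/fl libraries. Both genotypes were below their DMSO libraries at AA 4wk without overlap, and only PTKO was so at AA 2wk. Against DMSO, Gstp1 at AA 4wk fell by 0.63 ± 0.13 on the log2 scale in PTKO (SE, limma adjusted p 0.000395) and by 0.34 ± 0.13 in fl/fl (0.0278). The PTKO call held in all 30 settings, while the fl/fl call was lost without fl/fl AA 4wk number 1 or 2 or fl/fl DMSO number 1 or 3 (-0.35 to -0.26). At AA 2wk the change was -0.27 ± 0.13 in PTKO (0.07) and 0.16 ± 0.13 in fl/fl (0.269), and the test of the difference between them gave -0.44 ± 0.18 (unadjusted p 0.0262, limma adjusted p 0.876). After median-of-ratios scaling the AA 2wk change was -0.60 in PTKO, called (limma adjusted p 0.00623), and -0.22 in fl/fl, not called (0.269). The scaled AA 4wk changes were -1.06 in PTKO and -0.74 in fl/fl, both called. Without PTKO AA 2wk number 3 the AA 2wk change in PTKO was -0.34 and called (limma adjusted p 0.0397). Gstp1 shares 57.8% of its 31-base stretches with Gstp2, so the levels of this pair may mix.

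Gpx3, the secreted plasma peroxidase, was by far the most abundant of the 10 genes. It took 3.43 to 3.95% of all reads in PTKO DMSO libraries and 3.41 to 4.11% in fl/fl DMSO libraries. Its share was 3.35 to 7.25% in PTKO and 2.89 to 4.30% in fl/fl at AA 2wk, and 2.22 to 2.93% in PTKO and 3.48 to 4.08% in fl/fl at AA 4wk. It ranked second by RPKM in every DMSO library, behind the androgen-regulated tubule transcript Kap, and first in every toxin library, where Kap took at most 0.31% of reads. In RPKM, PTKO DMSO libraries had 23046, 26019 and 22606, and fl/fl DMSO libraries had 27104, 24876 and 22468. At AA 2wk, PTKO libraries had 25557, 22073 and 47764, and fl/fl libraries had 19029.5, 19417 and 28314. At AA 4wk, PTKO libraries had 19333, 14648 and 17906, against 23847, 22917 and 26876 in fl/fl libraries. The genotypes overlapped until AA 4wk, where every PTKO library was below every fl/fl library. No toxin effect was called for Gpx3, with 0.33 ± 0.26 in PTKO and -0.18 ± 0.26 in fl/fl at AA 2wk and -0.47 ± 0.26 in PTKO and -0.01 ± 0.26 in fl/fl at AA 4wk (log2, SE, limma adjusted p from 0.109 to 0.964). After median-of-ratios scaling the AA 4wk change in PTKO was -0.92 and called (limma adjusted p 0.0192), and in fl/fl it was -0.43 and not called. The scaled AA 2wk changes were -0.01 in PTKO and -0.57 in fl/fl, neither called. Quantile normalization gave 1.30 in all 4 of these comparisons, because it assigns each rank a fixed value and Gpx3 moved to the first rank. Without both AA 2wk number 3 libraries, the PTKO change at AA 4wk was still -0.47 and was called (limma adjusted p 0.0039), and the changes at AA 2wk were -0.01 in PTKO and -0.36 in fl/fl, the fl/fl one called (0.0355).

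Gpx1, the cytosolic peroxidase that clears hydrogen peroxide, was second in abundance among the 10 genes. It had 2139.6, 1932 and 1959 RPKM in PTKO DMSO libraries, and 1936, 1711 and 1946 RPKM in fl/fl DMSO libraries. At AA 2wk it had 1443, 1154 and 2089.6 RPKM in PTKO libraries, and 1169, 1287 and 1319 RPKM in fl/fl libraries. By AA 4wk it had 1286, 967 and 1164 RPKM in PTKO libraries, against 1319, 1417 and 1401 RPKM in fl/fl libraries. All fl/fl toxin libraries were below all fl/fl DMSO libraries, and in PTKO AA 2wk number 3 alone reached the DMSO range. Against DMSO, Gpx1 at AA 4wk fell by 0.83 ± 0.17 on the log2 scale in PTKO (SE, limma adjusted p 0.000591) and by 0.43 ± 0.17 in fl/fl (0.0384). At AA 2wk it fell by 0.57 ± 0.17 in fl/fl (0.0108), and its change in PTKO was -0.41 ± 0.17 (0.0547), which became -0.64 and was called without PTKO AA 2wk number 3 (0.000887). The fl/fl call at AA 4wk was lost without any single fl/fl library of AA 4wk or without fl/fl DMSO number 1 or 3 (-0.45 to -0.40), and both fl/fl calls were lost under quantile normalization. Median-of-ratios scaling gave -0.75 in PTKO and -0.96 in fl/fl at AA 2wk and -1.28 in PTKO and -0.85 in fl/fl at AA 4wk, all called (limma adjusted p from 0.000165 to 0.0121).

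Gpx4, which reduces lipid hydroperoxides in membranes and is known as the main guard against ferroptosis, was lower after remodeling in both genotypes. It had 72.7, 61.1 and 73.0 RPKM in PTKO DMSO libraries, and 59.4, 71.4 and 59.5 RPKM in fl/fl DMSO libraries. After 2 weeks of toxin it had 49.9, 45.4 and 62.4 RPKM in PTKO libraries, and 53.0, 43.1 and 64.5 RPKM in fl/fl libraries. At AA 4wk it had 38.9, 37.5 and 41.7 RPKM in PTKO libraries, against 44.8, 45.8 and 51.4 RPKM in fl/fl libraries. No AA 4wk library reached the DMSO libraries of its genotype, and at AA 2wk both number 3 libraries did. Against DMSO, Gpx4 at AA 4wk fell by 0.79 ± 0.14 on the log2 scale in PTKO (SE, limma adjusted p 0.000152) and by 0.41 ± 0.14 in fl/fl (0.0178). At AA 2wk it fell by 0.39 ± 0.14 in PTKO (0.0252), and its change in fl/fl was -0.25 ± 0.14 (0.125), or -0.40 and called without fl/fl AA 2wk number 3 (0.0207). Single libraries ended the AA 2wk call in PTKO (AA 2wk number 1 or 2, DMSO number 1 or 3, -0.36 to -0.30) and the AA 4wk call in fl/fl (AA 4wk number 1 or 2, DMSO number 2, -0.39 to -0.33). Median-of-ratios scaling gave -0.73 in PTKO and -0.64 in fl/fl at AA 2wk and -1.23 in PTKO and -0.82 in fl/fl at AA 4wk, all called (limma adjusted p from 1.63e-05 to 0.00479). A pseudogene, Gpx4-ps2, shares 55.2% of its 31-base stretches, so its level is uncertain too.

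Between genotypes, no single gene of the 10 was called in any treatment. After remodeling, all 10 PTKO estimates lay below fl/fl, from -0.94 for Gsta2 to -0.15 for Gstm2 (log2). These estimates share the same libraries, and the share of all genes lower in PTKO was not counted. In limma, 0 of 10 were called in DMSO cortex, beside 0.0367% of all tested genes. Likewise 0 of 10 were called at AA 2wk, beside 0.00734%, and 0 of 10 after remodeling, beside 0.00734%. At an unadjusted p under 0.05 there was 1 of 10 under DMSO, beside 4.94% of all genes, while AA 2wk had 3, beside 6.70%, and AA 4wk had 3, beside 6.04%. A voom fit of the recovered reads also called 0 of 10 in each treatment. Same-numbered AA 2wk libraries of the genotypes varied together, and with the replicate number as a block 0 of 10 were still called at AA 2wk (limma adjusted p from 0.225 to 0.982), beside 0.0220% of all genes. Within each of these 3 pairs Gpx3 was higher in PTKO, and Gsta2, Gstm1, Gstm7 and Gstp1 were lower in PTKO. The share of all genes with 3 pairs in one direction was not counted. At AA 4wk, all 3 PTKO libraries were below all 3 fl/fl libraries for 6 of the 10 genes, Gsta2, Gsta3, Gsta4, Gpx1, Gpx3 and Gpx4, beside 9.73% of all genes. None of the 10 had all PTKO libraries above all fl/fl libraries, beside 7.88% of all genes under DMSO, while AA 2wk had 1.95% of all genes so and AA 4wk had 14.1%. Under DMSO this separation held for 3 of the 10, Gsta3, Gstm1 and Gstm7, all lower in PTKO, beside 5.77% of all genes, and at AA 2wk for 2, Gstm7 and Gstp1, beside 4.74%. The 10 genes had a median difference (log2, PTKO minus fl/fl) of -0.05 under DMSO, where all tested genes had 0.01. It was -0.10 at AA 2wk, where all genes had -0.06, and -0.27 at AA 4wk, where all genes had 0.03.

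The alpha class carried the largest differences at AA 4wk. PTKO minus fl/fl was -0.94 ± 0.40 for Gsta2, -0.74 ± 0.30 for Gsta3 and -0.93 ± 0.34 for Gsta4 (log2, SE, unadjusted p 0.0329, 0.0253 and 0.0142, limma adjusted p 0.812 for each). The 95% intervals ran from -1.80 to -0.09 for Gsta2, from -1.38 to -0.11 for Gsta3 and from -1.65 to -0.22 for Gsta4. The peroxidases followed with -0.51 ± 0.26 for Gpx3, -0.28 ± 0.17 for Gpx1 and -0.26 ± 0.14 for Gpx4 (limma adjusted p from 0.822 to 0.827). Weighting libraries by their estimated quality brought Gsta2, Gsta3, Gsta4 and Gpx3 past the threshold at AA 4wk (limma adjusted p from 0.0243 to 0.0349). That was 4 of 10, beside 4.54% of all genes. Leaving out both AA 2wk number 3 libraries brought Gsta3 and Gsta4 past it (0.0298 and 0.0441), 2 of 10 beside 1.45%. At AA 4wk the injured tubule markers, 7 of 7 in the table and none at 0, overlapped between genotypes by sum. They summed to 11095 to 13551 RPKM in PTKO and 8334 to 11197 RPKM in fl/fl. Their mean log2 differences from the fl/fl DMSO mean did not overlap. These were 5.03, 5.30 and 5.21 in PTKO and 4.96, 4.34 and 4.85 in fl/fl. The macrophage markers, 9 of 10 found, summed to 3477 to 4849 RPKM in PTKO and 2146 to 3252 RPKM in fl/fl. Of 4 further tubule marker lists, 3 were lower in PTKO without overlap at that time, and the collecting duct principal cell list overlapped (353 to 475 RPKM in PTKO and 369 to 531 RPKM in fl/fl). The 5 thick ascending limb markers summed to 1966 to 3006 RPKM in PTKO and 3437 to 4346 RPKM in fl/fl, the 4 of the distal convoluted tubule to 287 to 446 RPKM in PTKO and 473 to 632 RPKM in fl/fl, and the 5 of intercalated cells to 144 to 169 RPKM in PTKO and 176 to 205 RPKM in fl/fl. The 16 proximal tubule markers overlapped, with 2052 to 4086 RPKM in PTKO and 3506 to 5424 RPKM in fl/fl, and the 7 fibroblast markers were higher in PTKO without overlap, with 421 to 463 RPKM in PTKO and 243 to 358 RPKM in fl/fl. The part of these markers' cells in the lower PTKO values was not tested.

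For Gstm7, PTKO minus fl/fl was -0.81 ± 0.15 under DMSO (log2, SE, unadjusted p 8.93e-05, limma adjusted p 0.135), -0.68 ± 0.15 at AA 2wk (unadjusted 0.000441, adjusted 0.295) and -0.24 ± 0.15 at AA 4wk (adjusted 0.83). The DMSO difference was past the threshold without fl/fl AA 2wk number 2 (adjusted 0.0344) or without both AA 2wk number 3 libraries (0.0362), with its size unchanged, since these libraries enter only through the shared estimate of spread. Its adjusted p ran from 0.0344 to 0.759 over the settings tried. Without the PTKO DMSO library numbered 3, the DMSO difference was -0.84 for Gstm7 (adjusted 0.246), -0.42 for Gsta3 and -0.28 for Gstm1. The AA 2wk difference was -0.86 and called without fl/fl AA 2wk number 2 (0.0164). Gstm1 was also lower in PTKO in the same comparison without that library (-0.79, adjusted p 0.0216, against -0.49 ± 0.20 and 0.673 with it). Gstm2, between these mu genes on the chromosome, had PTKO minus fl/fl values of 0.10 ± 0.15 in DMSO cortex, 0.04 ± 0.15 in AA 2wk cortex and -0.15 ± 0.15 in AA 4wk cortex, with 95% intervals that stayed between -0.47 and 0.42.

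**Figure D3:**
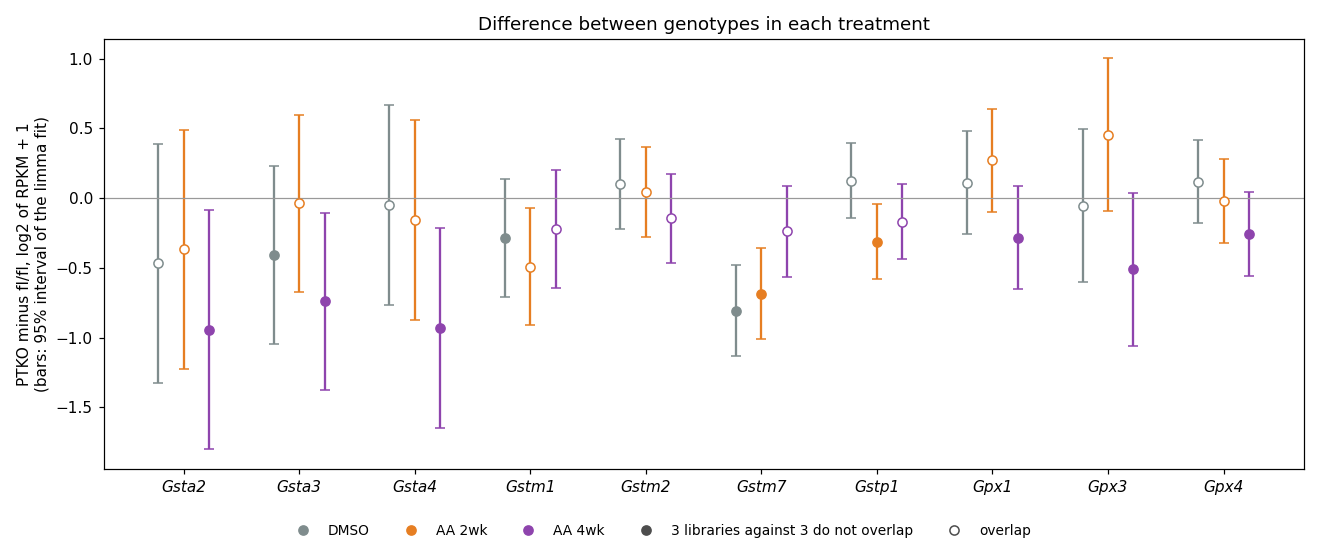
PTKO minus fl/fl in log2(RPKM + 1) (vertical axis, with 95% intervals of the limma fit) for each gene under DMSO, AA 2wk and AA 4wk. Filled points mark 3 libraries against 3 without overlap. The 3 alpha class genes reach -0.74 to -0.94 at AA 4wk, Gstm7 lies at -0.81 under DMSO, and no point passed the adjusted threshold.

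From AA 2wk to AA 4wk, Gsta3 fell in PTKO and no other gene of the 10 was called in either genotype without a replicate block. The change of Gsta3 was -1.34 ± 0.30 in PTKO (log2, SE, limma adjusted p 0.0274) and -0.64 ± 0.30 in fl/fl (0.404). In PTKO, 1 of 10 was called, beside 4.16% of all genes, and 5 of 10 had an unadjusted p under 0.05, beside 26.9%, and in fl/fl 0 of 10, beside 0.125%, with 3 of 10 at an unadjusted p under 0.05 in fl/fl, beside 12.3%. The Gsta3 call was lost without PTKO AA 2wk number 3 (-1.01, adjusted p 0.085), PTKO AA 4wk number 2 (-1.17, 0.151) or PTKO AA 4wk number 3 (-1.40, 0.0747). Deviations from group means of same-numbered PTKO libraries of AA 2wk and AA 4wk were only weakly correlated (0.101, 0.243 and 0.239). The median over all 45 same-numbered pairs was 0.101. With the replicate number as a block, a choice made from the data, 3 of 10 were called in PTKO, beside 11.5% of all genes. These were Gsta3 (limma adjusted p 0.0132), Gstp1 (log2 change -0.35, adjusted p 0.0396) and Gpx3 (-0.80, 0.0409). In PTKO, Gsta3, Gstp1, Gpx3 and Gpx4 had every AA 4wk library below every AA 2wk library, 4 of 10 beside 8.52% of all genes. In fl/fl this held for Gstp1 alone, 1 of 10 beside 10.4% (-0.50 ± 0.13, unadjusted p 0.00121, limma adjusted p 0.137), and Gstm2 alone had every AA 4wk library above every AA 2wk library, 1 of 10 beside 10.4%. The change of Gpx3 was -0.80 ± 0.26 in PTKO (0.0783) and 0.16 ± 0.26 in fl/fl (0.813). The difference between these changes, a contrast added after its values were seen, was -0.97 ± 0.36 for Gpx3 (unadjusted p 0.0176, limma adjusted p 0.93), and 0 of all tested genes passed it, with 2 of the 10 and 3.24% of all genes at an unadjusted p under 0.05. Under sample quality weights this difference was -0.94 for Gpx3 and was called (limma adjusted p 0.0275), 1 of 10 beside 1.03% of all genes. The interaction of genotype with the toxin was called for 0 of 10 at AA 2wk, beside 0.0147% of all genes, and for 0 of 10 at AA 4wk, beside 0.00734%. At an unadjusted p under 0.05 each held 1 of the 10, Gstp1 at AA 2wk and Gstm7 at AA 4wk, beside 5.36% and 4.66% of all genes.

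The AA 2wk libraries numbered 3 carried most of the spread in the alpha class and in Gpx3. Gsta2, Gsta3 and Gsta4 together summed to 171, 208 and 397 RPKM in PTKO AA 2wk libraries 1, 2 and 3, and to 209, 198 and 541 RPKM in fl/fl AA 2wk libraries. For Gpx3 the shares of reads were 3.88, 3.35 and 7.25% in PTKO and 2.89, 2.95 and 4.30% in fl/fl. Both number 3 libraries thus had the highest values of their group in each of these measures. The mean of the injured tubule markers above the fl/fl DMSO mean was 5.07, 5.35 and 3.96 in PTKO AA 2wk libraries and 4.71, 5.23 and 3.94 in fl/fl AA 2wk libraries (log2). Macrophage markers summed to 2502, 2607 and 926 RPKM in PTKO and 1251, 2911 and 452 RPKM in fl/fl. In both AA 2wk groups, injury and macrophage markers were thus lowest in number 3, where the summed alpha class and Gpx3 were highest. This match of all measures in 1 library did not hold at AA 4wk in either genotype. In fl/fl, number 3 had the highest alpha class sum (275 RPKM) and Gpx3 share (4.08%), and number 2 the lowest injury (4.34) and macrophage (2146 RPKM) markers. In PTKO, number 3 had the highest alpha class sum (165 RPKM) and lowest macrophage markers (3477 RPKM). There, number 1 had the highest Gpx3 share (2.93%) and lowest injury markers (5.03). At AA 2wk the proximal tubule markers stood at -1.75 from the fl/fl DMSO mean in PTKO number 3 and -1.43 in fl/fl number 3 (log2), against -2.50 and -2.81 in the other PTKO libraries and -1.98 and -2.59 in the other fl/fl libraries. The AA 2wk libraries numbered 3 were also the shallowest of their groups, with 12.4 M reads in PTKO and 12.5 M reads in fl/fl, and the part of depth or of injury in these values was not tested.

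**Figure D4:**
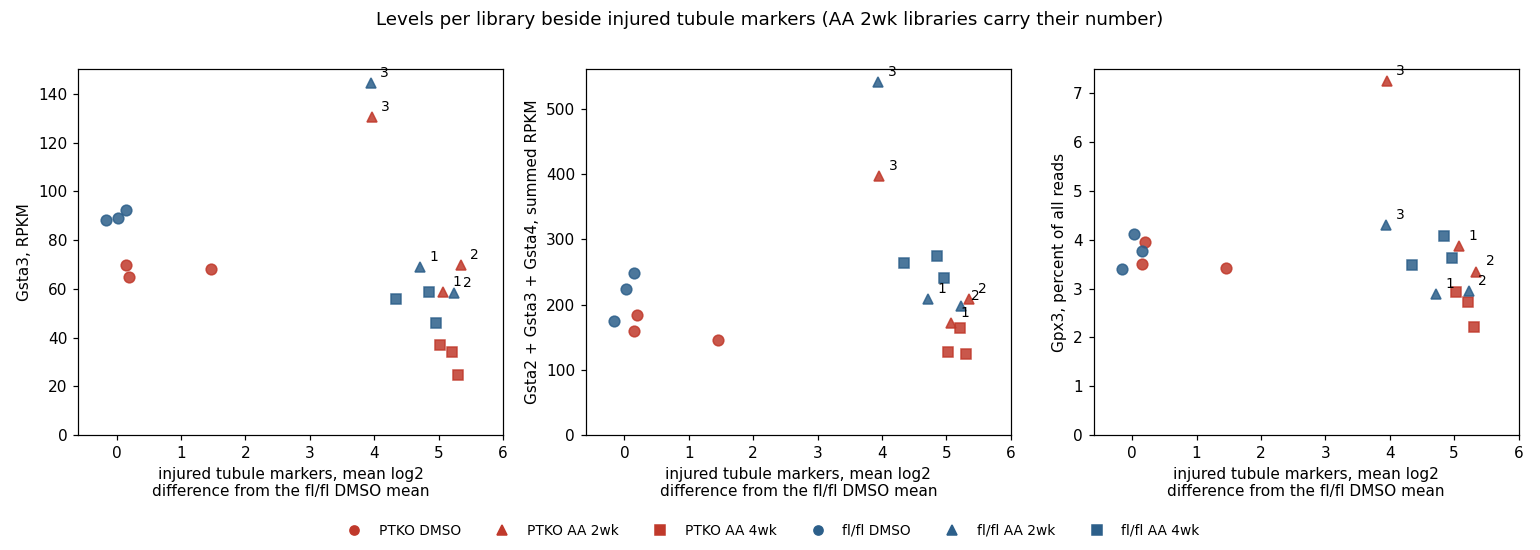
Gsta3 RPKM (left), summed RPKM of Gsta2, Gsta3 and Gsta4 (middle) and the percent of all reads from Gpx3 (right) in each of the 18 libraries, against the mean log2 difference of 7 injured tubule markers from the fl/fl DMSO mean. Triangles are AA 2wk libraries with their number. Both number 3 libraries lie at about the same marker level (3.96 in PTKO, 3.94 in fl/fl) and are the highest of their group on each vertical axis.

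Over the 18 libraries, the genes with the most similar profiles to each member were found as the smallest root mean square difference of log2(RPKM + 1), each centred on its fl/fl DMSO mean. Gpx3 was closest to Slc5a2, the sodium-glucose cotransporter SGLT2 of the early proximal tubule (0.17), and to the creatine transporter Slc6a8 (0.19). Gpx4 was closest to Uqcr10 (0.09) and Sdhd (0.10), subunits of respiratory complexes, and Gstp1 to Atp5j2 (0.10), a subunit of ATP synthase, and Gbe1 (0.11), the glycogen branching enzyme. Gpx1 was closest to the copper transporter Slc31a1 (0.13) and C1rl (0.14), and Gsta3 to Dcxr (0.27), a carbonyl reductase, and Cyp2d26 (0.28). Gsta4 was closest to Cbr1 (0.30), another carbonyl reductase, Gstm2 to Optn (0.12) and Rusc1 (0.12), and Gsta2 to Slc22a29 (0.35) and D630023F18Rik (0.37). Gstm1 was closest to Gm10516 (0.18) and Acp6 (0.19), and Gstm7 to Ropn1l (0.28) and again Gm10516 (0.29). Among the 10 genes themselves, Gpx1 and Gpx4 (0.21), Gstp1 and Gpx4 (0.24) and Gstm1 and Gstm7 (0.27) were the closest pairs, and Gsta4 and Gstm7 (1.43) the farthest. These distances are descriptions of libraries that share depth and injury state.

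The other glutathione transferases responded in both directions, with more genes higher than lower as deposited and as many in PTKO at AA 4wk under median-of-ratios scaling. Of 17 tested, 7 were higher and 2 lower in PTKO and 7 higher and 3 lower in fl/fl at AA 2wk, and 7 higher and 4 lower in PTKO and 8 higher and 4 lower in fl/fl at AA 4wk. Their median log2 fold change ran from 0.11 to 0.28 over these 4 comparisons, below the all-gene medians of 0.29 to 0.40. Under median-of-ratios scaling 4 to 6 were higher and 3 to 6 lower. These and the following list counts stand beside 45.9 to 55.0% of all tested genes called higher and 12.2 to 17.3% called lower as deposited. Hpgds, the hematopoietic prostaglandin D synthase of the sigma class, rose by 2.43 in PTKO and 2.18 in fl/fl at AA 4wk (log2). Ptgds, in the list although it is a lipocalin-type prostaglandin D synthase and no glutathione transferase, rose by 2.72 in PTKO and 1.61 in fl/fl at AA 2wk (1.25 and not called in fl/fl under median-of-ratios scaling). Without Ptgds, 16 genes had 6 higher in each genotype at AA 2wk, and 6 higher in PTKO and 7 in fl/fl at AA 4wk. Gstm6 rose by 1.62 in PTKO and 1.41 in fl/fl at AA 4wk. Gstz1, the zeta class enzyme of tyrosine breakdown, fell, with -1.84 in PTKO and -1.92 in fl/fl at AA 4wk, and Gstk1, the mitochondrial and peroxisomal kappa class enzyme, with -1.14 in PTKO and -1.19 in fl/fl. Gstt2, of the theta class, fell, with -0.96 in PTKO and -0.83 in fl/fl at AA 4wk.

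The genes that remove peroxides without being in the 10 split as well. Of 10 tested other glutathione peroxidases, peroxiredoxins and catalase, 3 were higher and 4 lower in PTKO and 4 higher and 4 lower in fl/fl at AA 2wk, and 2 higher and 4 lower in PTKO and 3 higher and 4 lower in fl/fl at AA 4wk. Cat, the peroxisomal catalase, fell, with -2.04 in PTKO and -1.63 in fl/fl at AA 4wk (log2), and the mitochondrial and peroxisomal peroxiredoxin Prdx5 with -1.28 in PTKO and -0.93 in fl/fl. Prdx3, the mitochondrial peroxiredoxin, fell, with -1.02 in PTKO and -0.62 in fl/fl. Prdx6, which reduces phospholipid hydroperoxides, was called at AA 2wk in fl/fl with 0.45, or 0.06 and not called under median-of-ratios scaling, and had 0.12 in PTKO. Gpx7 and Gpx8, peroxidases of the endoplasmic reticulum, rose instead, at AA 4wk Gpx7 by 1.77 in PTKO and 1.78 in fl/fl and Gpx8 by 1.75 in PTKO and 1.44 in fl/fl. Of 10 thioredoxin system and superoxide dismutase genes, 6 were lower in each genotype at AA 4wk, with 2 higher in PTKO and 3 higher in fl/fl. Sod1, the cytosolic superoxide dismutase, fell, with -1.31 in PTKO and -1.03 in fl/fl, the mitochondrial Sod2 with -1.22 in PTKO and -0.75 in fl/fl, and the extracellular Sod3 with -1.01 in PTKO and -0.84 in fl/fl. Txnip, which binds thioredoxin, rose by 1.28 in PTKO and 1.01 in fl/fl at AA 4wk, and Srxn1, which repairs overoxidized peroxiredoxins, by 0.78 in PTKO and 1.004 in fl/fl at AA 2wk. Thioredoxin reductase Txnrd1 rose by 0.51 in PTKO and 1.15 in fl/fl at AA 2wk, of which the PTKO call was lost under median-of-ratios scaling (0.18). No gene of the selenium supply list was called higher in any of the 4 toxin comparisons, and of its 10 tested genes 6 were lower in PTKO and 6 in fl/fl at AA 2wk and 6 in PTKO and 4 in fl/fl at AA 4wk, and all 10 under median-of-ratios scaling. Lrp2, the tubule receptor megalin that takes up selenoprotein P, fell, with -2.06 in PTKO and -2.60 in fl/fl at AA 4wk, and Sephs2, which makes the selenium donor, with -1.42 in PTKO and -1.24 in fl/fl. Sepp1, selenoprotein P, fell at AA 2wk, with -1.06 in PTKO and -1.07 in fl/fl, and at AA 4wk in PTKO (-0.82), while its AA 4wk change in fl/fl was -0.33 and not called.

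Among genes that make glutathione or process its conjugates, more were called lower than higher in each comparison. Of 15 tested synthesis and recycling genes, 1 was higher and 7 lower in PTKO and 2 higher and 7 lower in fl/fl at AA 2wk, and 1 higher and 11 lower in PTKO and 2 higher and 7 lower in fl/fl at AA 4wk. Ggct, which breaks down gamma-glutamyl peptides, fell, with -2.29 in PTKO and -1.82 in fl/fl at AA 4wk (log2), Gss, glutathione synthetase, with -1.56 in PTKO and -1.28 in fl/fl, and Chac2, which degrades glutathione, with -1.46 in PTKO and -1.16 in fl/fl. Glrx3, a glutaredoxin, rose at AA 2wk by 0.72 in PTKO and 0.90 in fl/fl, and Chac1, which also degrades glutathione, at AA 4wk by 0.74 in PTKO and 0.66 in fl/fl. Of 14 mercapturate pathway and export genes, 9 were lower and 3 higher in PTKO and 8 lower and 3 higher in fl/fl at AA 2wk, and 9 lower and 4 higher in each genotype at AA 4wk. Acy3, which deacetylates mercapturates, fell, with -4.01 in PTKO and -3.85 in fl/fl at AA 4wk, the N-acetyltransferase Nat8 with -3.06 in PTKO and -3.30 in fl/fl, and Cml1 with -2.80 in PTKO and -2.44 in fl/fl. Of the export pumps, Abcc3, Abcc1 and Abcc4 rose. At AA 4wk Abcc3 rose by 2.22 in PTKO and 1.81 in fl/fl. Abcc1 rose by 1.32 in PTKO and 1.48 in fl/fl, and Abcc4 by 1.33 in PTKO and 1.19 in fl/fl. Abcc2, the other pump in the list, was not called higher in either genotype at AA 2wk. Acy3 and Lrp2 are also in the proximal tubule marker list, so these lists overlap with the markers of tubule mass. The NRF2 list had 13 higher and 4 lower of 21 in PTKO and 12 higher and 2 lower in fl/fl at AA 2wk, and 11 higher and 6 lower in PTKO and 13 higher and 4 lower in fl/fl at AA 4wk. Its share called higher was 61.9% in PTKO and 57.1% in fl/fl at AA 2wk, beside 45.9% of all genes in PTKO and 50.4% in fl/fl. After remodeling its share was 52.4% in PTKO, below the 55.0% of all genes, and 61.9% in fl/fl, beside 51.9%. Under median-of-ratios scaling it had 8 higher and 5 lower in PTKO and 10 higher and 6 lower in fl/fl at AA 2wk, and 7 higher and 8 lower in PTKO and 8 higher and 7 lower in fl/fl at AA 4wk. In it, Akr1b8 rose by 3.37 in PTKO and 4.25 in fl/fl at AA 2wk and the epoxide hydrolase Ephx1 by 2.97 in PTKO and 3.30 in fl/fl, while Me1, malic enzyme, fell, with -1.91 in PTKO and -1.48 in fl/fl. Gclm, the modifier subunit of glutamate-cysteine ligase, fell at AA 4wk, with -1.16 in PTKO and -1.11 in fl/fl, and the quinone reductase Nqo1 with -0.97 in PTKO and -0.86 in fl/fl. No gene of these 7 lists was called between genotypes in any treatment.

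**Figure D5:**
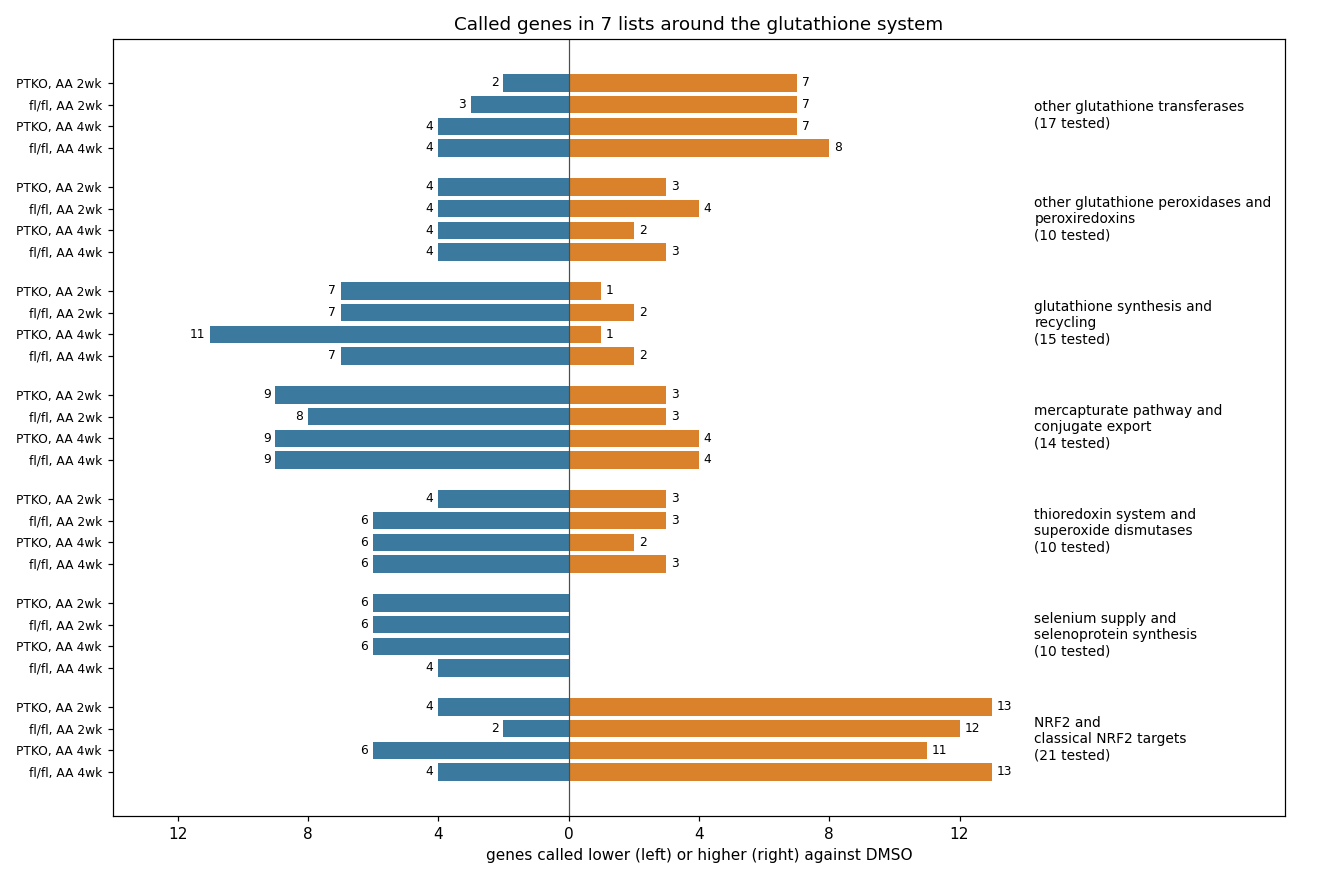
Number of genes called lower (left of 0) or higher (right of 0) against DMSO in 7 lists, in PTKO and fl/fl at AA 2wk and AA 4wk, by limma at an adjusted p under 0.05. The selenium list has no gene called higher, and the mercapturate list has 8 or 9 lower in each comparison. The NRF2 list has more genes higher than lower in each comparison, as have all tested genes (45.9 to 55.0% higher, 12.2 to 17.3% lower), and its 11 of 21 higher in PTKO at AA 4wk is 52.4%, beside 55.0% of all genes (with median-of-ratios scaling it has 7 higher and 8 lower in PTKO at AA 4wk).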

How the data were processed

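RNA of 18 kidney cortex libraries was measured by RNA-seq on total RNA with a stranded kit, per the labels' protocols. The deposited values are RPKM per gene, per the file headers, and the submitters' processing notes name bcl2fastq 2.19, kallisto and the mm10 build. How reads were assigned to copies of a gene is not given in the sources used here. Steps between the deposited RPKM values gave whole reads for all 17579 genes above 0 in at least 6 libraries (100.000%, tolerance 0.02 reads), which gave the depths; a voom fit on these reads was an alternative. No pair of libraries was identical, and 27 gene names read as dates.

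Genes that reached 1 RPKM in 3 or more libraries were tested on log2(RPKM + 1), a scale that understates changes of low genes, with limma 3.58.1 (statmod 1.5.0, R 4.3.3), 6 group means, an intensity trend and robust moderation. Tests were two-sided and adjusted by Benjamini-Hochberg over 13624 genes. The fit was also run on simulated independent values with changed genes in PTKO DMSO alone. That run lacks the upward shift of the whole table and does not cover the toxin comparisons. There were 11 comparisons plus 1 added later. Same-numbered libraries were taken as paired where all 3 correlations of their deviations from group means were over 0.1. This held for PTKO against fl/fl at AA 2wk (0.436, 0.431 and 0.663) and for AA 4wk against AA 2wk in PTKO (0.101, 0.243 and 0.239), as seen in the data and not from the labels. The median over all 45 same-numbered pairs was 0.101, so this cut was a low one. Both courses share the DMSO group of their genotype, so their effects are not independent. With 3 libraries a group, permutation alone could not give an exact p under 0.1.

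The members and lists were chosen with earlier results of these data known. All 10 members are named, and in each list up to 3 called genes per direction with the largest change in fl/fl, plus the 2 nearest profiles of each member, of which 1 is not reported here. Shared stretches are words of 31 bases of GENCODE transcripts.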

Additional observations from a re-analysis of the deposited data

How the results depend on the processing

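Over 30 settings, 6 of the 22 called results of the 10 genes kept their call in every one: Gstm2 and Gstm7 at AA 4wk in fl/fl, and Gsta3, Gstp1, Gpx1 and Gpx4 at AA 4wk in PTKO. Of 3600 alternative values, 3475 kept their side of the threshold (88 of these, uncalled in both fits, changed sign), 53 lost a call, 69 gained one and 3 reversed, all of Gpx3 under quantile normalization (1.30 at AA 2wk and AA 4wk in fl/fl and at AA 4wk in PTKO), which follows from its rank. Sample quality weights called 2 members between genotypes at AA 2wk and 4 at AA 4wk (beside 11.9% and 4.54% of all genes), 7 from AA 2wk to AA 4wk in fl/fl and 3 in PTKO (26.2% and 14.2%), and Gpx3 in the genotype difference of that change (-0.94, adjusted p 0.0275). Leaving out both AA 2wk number 3 libraries called 1 between genotypes under DMSO (0.250% of all genes) and 2 at AA 4wk (1.45%), and 7 for AA 2wk against DMSO in fl/fl (68.4%). A fit of only the groups compared called 0 from AA 2wk to AA 4wk in PTKO, and of all genes 0 there and 0 in fl/fl. The cause of these shifts was not tested.

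Leaving out 1 library at a time gave 0 to 1 members between genotypes under DMSO (0.00734 to 0.0734% of all genes), 0 to 2 at AA 2wk (0.00734 to 0.807%), 4 to 8 for AA 4wk against DMSO in fl/fl (58.8 to 70.1%), 1 to 5 for AA 2wk against DMSO in PTKO (49.4 to 68.2%), 0 to 1 from AA 2wk to AA 4wk in fl/fl (0.00734 to 1.18%) and 0 to 2 in PTKO (0.0734 to 11.7%). Of all genes, quality weights called 1626 between genotypes at AA 2wk and 619 at AA 4wk, against 1 each as reported, and 3575 from AA 2wk to AA 4wk in fl/fl and 1939 in PTKO, against 17 and 567. Without both number 3 libraries, 34 genes were called between genotypes under DMSO and 197 at AA 4wk, against 5 and 1. Of 15 pairs of groups, 2 had all 3 same-numbered libraries correlated over 0.1, and 11 of 18 libraries were closest to one of their own number. With the replicate number as a block, 3 members were called from AA 2wk to AA 4wk in PTKO and 1570 genes in all. In groups that did not pair, the block called 6 members for AA 2wk against DMSO in PTKO (62.3% of all genes), adding Gstp1 (adjusted p 0.0285) and Gpx1 (0.0359), and it changed no other call of the 10 genes. With 3 libraries a group, a difference that was not called was not shown to be absent.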
